A study of Ovis aries with 16 samples.

Results

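*COX1* (ENSOARG00020000017), *COX3* (ENSOARG00020000023) and *ND4* (ENSOARG00020000027) are respiratory chain genes of mitochondrial DNA, and they make up 3 of the 26478 genes counted in the livers of 16 fetal sheep. They were chosen by the study's comparison of hypoxic with normal pregnancies in these same livers, as the genes of this kind that its supplementary gene table lists with a symbol. Every difference between those groups in the 3 genes is therefore given as a description, and no test of it is used. The fetuses were carried by Welsh Mountain ewes. The CON group held 9 fetuses of ewes in normoxia (5 male, 4 female), and the HOX group held 7 fetuses of ewes kept in hypoxia, at 10% inspired O2, for 30 days (3 male, 4 female). Livers of both groups were taken at 0.9 of gestation, which the sample labels put at about day 130 and the study's methods put later. Messenger RNA of each liver was sequenced as 1 library, and each liver is 1 replicate.

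The respiratory chain is a series of protein complexes in the inner mitochondrial membrane that passes electrons from nutrients to oxygen and pumps protons for ATP synthesis. Most of its subunits are encoded in the nucleus and imported, while a small core set is encoded by mitochondrial DNA, transcribed inside the organelle as long precursor RNAs from both strands and then cleaved into the transcripts of single genes. The liver depends heavily on oxidative metabolism and is rich in mitochondria.

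Total counts ranged from 24065959 to 29353692 reads in CON and from 23955166 to 33952503 in HOX livers. All 3 genes passed the read minimum (250 reads in at least 8 livers) that kept 8580 genes, and the lowest count of any of them in any liver was 37013. Counting error was at most 0.520% of a value, far below the spread between livers. By the order of genes in RefSeq's annotation of a different assembly of the sheep genome (ARS-UI_Ramb_v3.0), the 3 genes were the third, the seventh and the tenth of 13 protein-coding genes on mitochondrial DNA. *COX2*, *ATP8* and *ATP6* stood between *COX1* and *COX3*, and *ND3* and *ND4L* between *COX3* and *ND4*. The rule by which the authors counted reads is not given in the sources used here, so reads shared with nuclear copies of mitochondrial DNA or with the opposite strand make these counts uncertain. Hepatocyte markers were looked at in the labelled tissue. Of 17 such genes, 8 could be found by symbol. Their summed expression was 24914 ± 2912 CPM in CON (mean ± SD, *n* = 9) and 18261 ± 2918 CPM in HOX livers (*n* = 7), where CPM is counts scaled to a common library size. Symbols came only from the study's list of genes that differed between these groups. The sums therefore show that hepatocyte genes were expressed in both groups, but nothing is read from their difference.

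On the first principal component of log2 CPM, HOX animal 1 scored 64.4 and the other livers between −15.6 and 6.23. On the second component, CON animal 6 scored 33.4 and the other livers between −20.5 and 18.8. CON animal 6 was below all other livers in 987 of the 8580 genes (11.5%) and above all of them in 943 (11.0%). Both animals are females. For the shares, the ratios, the correlations and the lists of genes, values with and without one of these livers are given.

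Together the 3 genes took up under 1% of the counted reads. Their summed share was lowest at 0.690%, with a median of 0.819% and a highest value of 0.929%, in CON, and was lowest at 0.500%, with a median of 0.627% and a highest value of 0.728%, in HOX livers. The lowest CON value was that of animal 2 and the highest that of animal 6. In HOX the lowest was animal 7 and the highest animal 6, which was the 1 HOX liver inside the CON range, so that the groups overlapped and 6 of 7 HOX livers lay below the lowest CON liver. The mean share was 0.817 ± 0.0874% in CON and 0.610 ± 0.0833% in HOX, and 0.617 ± 0.0890% in HOX without animal 1. Exact Clopper-Pearson intervals (95%) around the share of 1 gene in 1 liver reached at most 0.00266 percentage points to either side and cover counting error only. From shares of reads, fewer mitochondrial transcripts cannot be told apart from more of the other transcripts, nor fewer cells of a type from less RNA per cell.

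**Figure D1:**
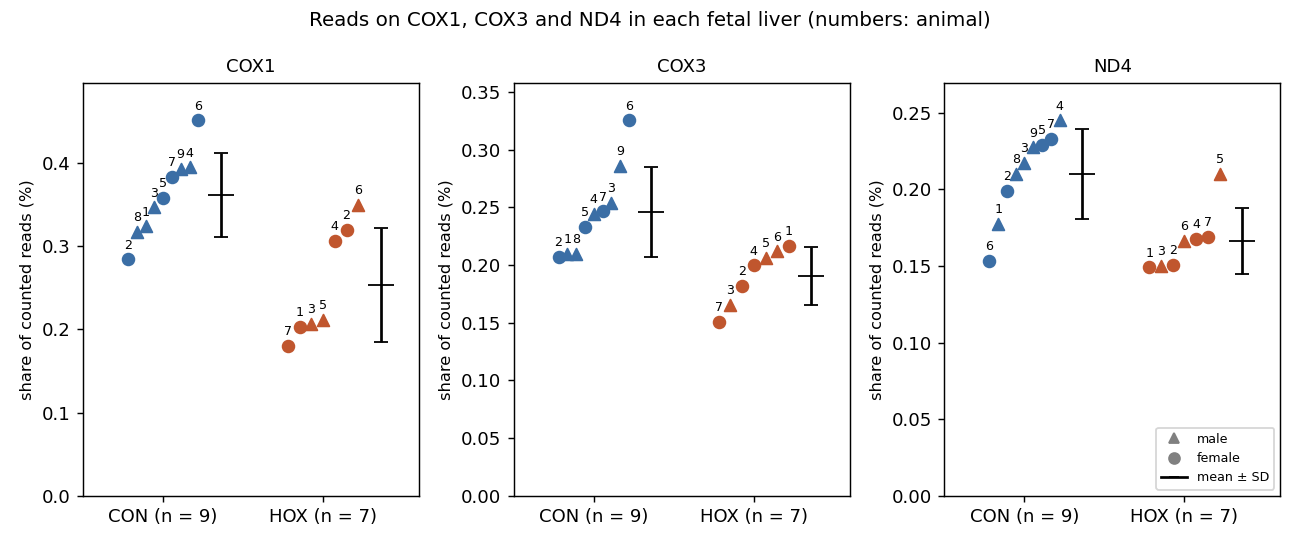
Share of counted reads (%, vertical axis from 0) on *COX1*, *COX3* and *ND4* in each of 9 CON and 7 HOX livers, sorted by value within a group; triangles are males, circles are females, numbers are animals, and bars are mean ± SD. CON animal 6 had the highest share of its group in *COX1* (0.451%) and *COX3* (0.325%) and the lowest in *ND4* (0.153%).

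*COX1* and *COX3* encode catalytic core subunits of cytochrome *c* oxidase (complex IV), the enzyme that reduces oxygen to water. In *COX1*, CON livers had 2864 to 4681 CPM with a median of 3716, and HOX livers had 1821 to 3336 CPM with a median of 2147. The groups overlapped, with 4 of 7 HOX livers below the lowest CON liver. HOX values lay in separate sets: animals 7, 1, 3 and 5 had 1821, 1999, 2027 and 2147 CPM, and animals 4, 2 and 6 had 3074, 3276 and 3336 CPM. The gap between these sets was 0.52 on the log2 scale, against a spread of 0.24 within the lower and 0.12 within the upper set, and both held males and females. The sets were cut at the largest gap among the HOX values after these were seen, so they are a description. Whether the gap exceeds chance was not tested. The upper set lay inside the CON range. Mean *COX1* expression was 3778 ± 624 in CON and 2526 ± 669 CPM in HOX, and its log2 fold change was −0.58 (SE 0.155).

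In *COX3*, CON livers had 2089 to 3380 CPM with a median of 2542, and HOX livers had 1526 to 2141 CPM with a median of 2009.8. The groups overlapped, as HOX animals 1 and 5 lay within the CON range and the other 5 below it. HOX animal 1, among the lowest of its group in *COX1*, was the highest in *COX3*. Its log2 fold change was −0.44 (SE 0.119), and the coefficient of variation was 17.3% in CON and 12.5% in HOX, compared with 16.5% and 26.5% in *COX1*.

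*ND4* encodes a membrane subunit of NADH dehydrogenase (complex I), part of its proton-pumping arm. CON livers had 1589.8 to 2877 CPM with a median of 2272, and HOX livers had 1473 to 2139.98 CPM with a median of 1589. The groups overlapped. The lowest CON value was that of animal 6, whose *COX1* and *COX3* values were the highest of all 16 livers, and the highest HOX value was that of animal 5, with the other 6 HOX livers at or below 1707 CPM. With all livers 4 of 7 HOX livers lay below the lowest CON liver. Without CON animal 6 the lowest CON liver had 1790 CPM, and 6 of 7 HOX livers lay below it. The log2 fold change of *ND4* was −0.41 (SE 0.120).

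Since the comparison of HOX with CON chose the genes, nothing is read from its calls. With edgeR's quasi-likelihood test and a threshold of 0.15 on the Benjamini-Hochberg adjusted *P*, 0 of the 3 genes were called, where 5 of 8580 genes (0.0583%) were called as lower in HOX. These were *DNAJC22*, *FKBP1B*, *GPD1*, *GSS* and ENSOARG00020010401, named here after their values were seen. With single livers left out edgeR called 1 to 11 genes in either direction, the most without HOX animal 1, and with animal number as a replicate block it called 0. With DESeq2's Wald test 3 of 3 were called, where 138 of 8580 (1.61%) were called as lower. In 6 of the 8580 genes (0.0699%) every HOX liver lay below every CON liver, and 0 of the 3 genes were among them.

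The ratios between the genes are ratios of reads. They are not corrected for the length of the genes and do not compare their levels, but they can be compared between livers. The *COX1*/*COX3* ratio was 1.36 to 1.61 in CON, with a median of 1.51, and 0.934 to 1.75 in HOX, with a median of 1.25. CON livers stayed close together (coefficient of variation 6.67%), while HOX livers spread to both sides (23.7%), with animals 1, 5, 7 and 3 below the lowest CON ratio, animals 6 and 2 above the highest and animal 4 inside the range. Mean ratios were 1.47 ± 0.0981 in CON and 1.33 ± 0.315 in HOX, so that the means differed by less than the spread within HOX. Without HOX animal 1 the HOX coefficient of variation was 20.5%.

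The *COX1*/*ND4* ratio was 1.43 to 2.94 in CON, with a median of 1.61, and 1.003 to 2.11 in HOX, with a median of 1.37. The CON value of 2.94 belonged to animal 6, and the other CON livers reached at most 1.83. The *ND4*/*COX3* ratio was 0.470 to 1.003 in CON, with a median of 0.945, and 0.688 to 1.12 in HOX, with a median of 0.840. The lowest CON liver was again animal 6, at 0.470 (95% Clopper-Pearson interval 0.465 to 0.476), and the next lowest CON liver, animal 9, had 0.794. Without CON animal 6 the coefficients of variation in CON were 7.70% for *COX1*/*ND4* and 8.70% for *ND4*/*COX3*, instead of 26.1% and 19.3%. In HOX they were 30.0% and 16.5%.

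**Figure D2:**
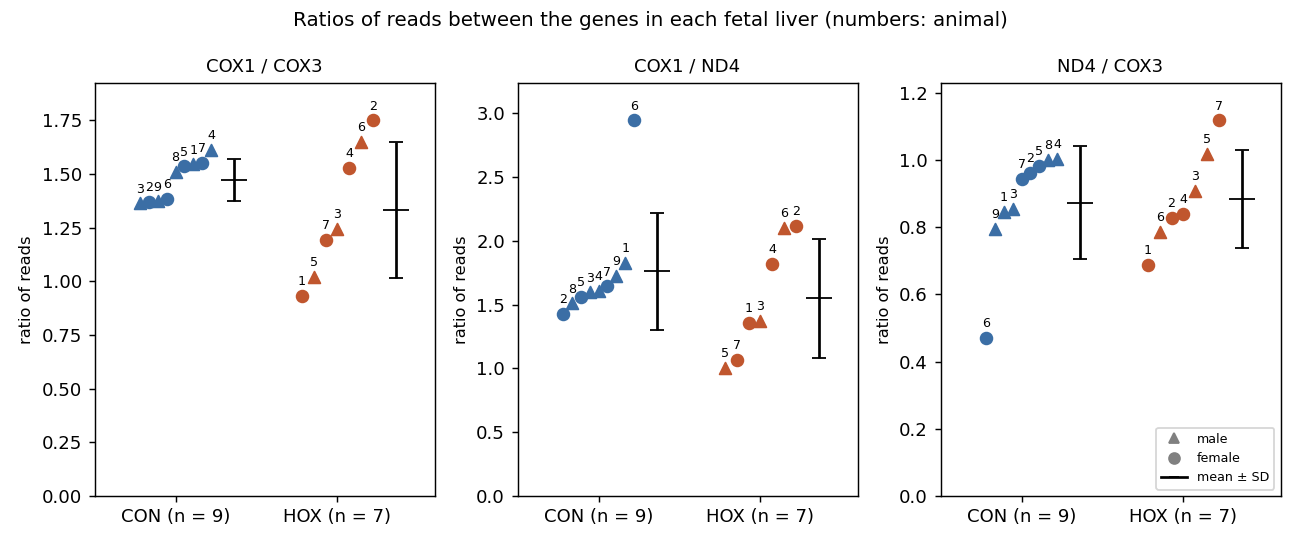
Ratio of reads (vertical axis from 0) for *COX1*/*COX3*, *COX1*/*ND4* and *ND4*/*COX3* in each of 9 CON and 7 HOX livers, sorted by value within a group; triangles are males, circles are females, numbers are animals, and bars are mean ± SD. CON livers lay between 1.36 and 1.61 in *COX1*/*COX3* while HOX livers lay between 0.934 and 1.75, and CON animal 6 stood apart in both ratios with *ND4*.

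Agreement between livers was examined within each group, so that the difference that chose the genes did not enter, by exact two-sided permutation tests of log2 CPM over 6 relations. In the 9 CON livers *COX1* and *COX3* rose and fell together, with *r* = 0.921 (exact permutation *P* = 0.000733, adjusted *P* = 0.00440) and rho = 0.933 (exact permutation *P* = 0.00075, adjusted *P* = 0.0045). Without the 2 livers farthest from the median of *COX1*, animals 2 and 6, *r* was 0.881. Among the other 8579 tested genes, *COX3* was number 10 in the order of *r* with *COX1*, and it was number 26 without CON animal 6.

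No such relation was found for *ND4* in the 9 CON livers. For *COX1* and *ND4*, *r* was 0.220 (exact permutation *P* = 0.571, adjusted *P* = 0.904) and rho was 0.300 (exact permutation *P* = 0.437, adjusted *P* = 0.939). For *COX3* and *ND4*, *r* was 0.0463 (exact permutation *P* = 0.904, adjusted *P* = 0.904) and rho was 0.167 (exact permutation *P* = 0.678, adjusted *P* = 0.939). Both values rest on CON animal 6. Without it *r* was 0.867 (exact permutation, adjusted *P* = 0.0183) and 0.800 (exact permutation, adjusted *P* = 0.0265). That liver drew attention by its *ND4* value, so the values without it are a description. Without animals 2 and 6, *r* was 0.895 for *COX1* and *ND4* and 0.772 for *COX3* and *ND4*.

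In the 7 HOX livers *COX3* and *ND4* had *r* = 0.218 (exact permutation *P* = 0.663, adjusted *P* = 0.904) and rho = −0.143 (exact permutation *P* = 0.783, adjusted *P* = 0.939). Without the 2 livers farthest from the median of *COX3*, animals 3 and 7, *r* was 0.263. It was 0.457 without animal 1 and −0.249 without animal 5. For *COX1* no *r* is given in HOX, a choice made after its values were seen. The livers lay in sets of 4 and 3, which are too few to test within, and over all 7 livers both relations of *COX1* had an adjusted *P* of 0.904 by the exact permutation test. Whether HOX differed from CON in these relations was not tested.

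Sex was not used in choosing the genes, and its effect was tested with treatment as a covariate. In CON the mean of *ND4* was 2284 ± 396 in 5 males and 2095 ± 382 CPM in 4 females, and in HOX it was 1735 ± 355 in 3 males and 1605 ± 112 CPM in 4 females, so the sexes overlapped in both groups. The log2 difference of females from males was −0.12 (SE 0.120) for *ND4*, 0.02 (SE 0.158) for *COX1* and 0.01 (SE 0.122) for *COX3*, with edgeR adjusted *P* values of 0.974, 0.993 and 0.996. With edgeR 0 of 3 genes were called, compared with 2 of 8580 genes (0.0233%) over the whole table, where 267 had an unadjusted *P* under 0.05 and DESeq2 called 7. The 2 called genes, ENSOARG00020022577 and ENSOARG00020023139, have no symbol and were named after their values were seen. The log2 interaction of sex and treatment was 0.0063 (SE 0.328) for *COX1*, −0.06 (SE 0.253) for *COX3* and 0.01 (SE 0.249) for *ND4*. edgeR called 0 of the 3 genes and 0 of 8580 (0%) for the interaction, where 281 had an unadjusted *P* under 0.05 and DESeq2 called 6.

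The ratios were also compared between the sexes, by an exact two-sided permutation of sex within treatment. The log2 difference of females from males was 0.0056 for *COX1*/*COX3* (exact permutation *P* = 0.968, adjusted *P* = 0.968), 0.12 for *COX1*/*ND4* (exact permutation *P* = 0.530, adjusted *P* = 0.795) and −0.12 for *ND4*/*COX3* (exact permutation *P* = 0.510, adjusted *P* = 0.795). The last 2 values depended most on CON animal 6, a female, and were 0.00094 and 0.0200 without it. With any other single liver left out they were 0.0307 to 0.23 and −0.17 to −0.0789, and *COX1*/*COX3* lay on either side of 0. The value of 0.0307 for *COX1*/*ND4* was that without HOX animal 5, a male.

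Of the lists of genes that work with the 3 genes, members could be found only where the supplementary gene table gives a symbol. Those genes were picked by the study on the same livers, so the lists are no independent evidence of a direction, and nothing is read from how many of their genes were called. Many of their values rest on HOX animal 1 or CON animal 6 and are also given without them, with edgeR and, for HOX animal 1, as an alternative chosen after seeing the data, with DESeq2. Of all 8580 tested genes, DESeq2 called 237 (2.76%) in either direction, and 524 (6.11%) without that liver, where edgeR called 11 (0.128%).

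Of 37 nuclear genes of complex I, the complex that holds *ND4*, 6 were found, and all 6 had a lower mean in HOX, with a median log2 fold change of −0.15 where the median over all tested genes was 0.0054 and 4188 of 8580 were lower (4383 without HOX animal 1 and 3878 without CON animal 6). Of the 6, *NDUFA5*, was at −0.0021 (SE 0.229). *NDUFB8* had 71.0 ± 7.83 CPM in CON and 62.8 ± 10.3 in HOX, and *NDUFS4* had 38.98 ± 4.89 and 34.3 ± 6.13. With edgeR and with DESeq2, 0 of the 6 were called. The summed expression of the 6 was 171 to 247 CPM in CON. It was 301 CPM in HOX animal 1, above every CON liver, and 139 to 175 CPM in the other 6 HOX livers. Without HOX animal 1 the median log2 fold change was −0.37, again with 6 of 6 lower, and DESeq2 called all 6 while edgeR called 0. The median was −0.07 and 5 of 6 were lower without CON animal 6, with *NDUFA5* at 0.03 (SE 0.248). Of 20 complex I assembly factors 2 were found, *NDUFAF1* at −0.39 (SE 0.126) and *TMEM242* at −0.39 (SE 0.160), and DESeq2 called both without HOX animal 1 and 0 with it.

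For complex IV, which holds *COX1* and *COX3*, 0 of 17 nuclear subunits and 4 of 28 assembly factors were found. The assembly factor *PET100* had 19.1 ± 4.19 CPM in CON and 14.5 ± 2.42 in HOX, and *TMEM223* had 40.5 ± 7.45 and 30.8 ± 4.38. The median log2 fold change of the 4 was −0.34. edgeR called 0 of them and DESeq2 called 1. Without HOX animal 1 the median was −0.35, and DESeq2 called 4 of 4. Of 81 genes of the mitochondrial ribosome, which translates the 3 transcripts, 9 were found, 8 with a lower mean in HOX (median log2 fold change −0.21). DESeq2 called 2 of the 9, *MRPL16* (−0.38, SE 0.0965) and *MRPS23* (−0.31, SE 0.0758), and edgeR called 0. The sum of the 9 was 264 to 321 CPM in CON, 406 CPM in HOX animal 1 and 209 to 257 CPM in the other 6 HOX livers. The 1 gene with a higher mean in HOX, *MRPS31*, was at 0.10 (SE 0.280) with HOX animal 1 and at −0.39 (SE 0.124) without it. Without that liver all 9 had a lower mean in HOX (median −0.33), and DESeq2 called 8 of 9 while edgeR called 0. Without CON animal 6, 7 of 9 were lower (median −0.16), with *MRPL15* at 0.03 (SE 0.212) and *MRPS31* at 0.14 (SE 0.305).

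Of 43 genes that maintain or express mitochondrial DNA 2 were found, *HSD17B10* at −0.11 (SE 0.156) and *TUFM* at −0.01 (SE 0.179). Their sum was 545 to 799 CPM in CON, 1140 CPM in HOX animal 1 and 458 to 631 CPM in the other 6 HOX livers. Without HOX animal 1 the log2 fold changes were −0.29 (SE 0.104) and −0.30 (SE 0.0655), and DESeq2 called both, where it called 0 of them with all livers and edgeR called 0 either way. They were −0.07 (SE 0.171) and 0.03 (SE 0.198) without CON animal 6. For complexes II, III and V, 0 nuclear genes were found. By sex, 0 of these genes were called by edgeR.

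The genes most like the 3 were sought over all 16 livers, by the *r* of each gene's deviations from its group means with the mean deviation of *COX1*, *COX3* and *ND4*. Of the 10 genes with the highest *r*, 0 have a symbol. ENSOARG00020018838 came first (*r* = 0.861), and ENSOARG00020008445 next (*r* = 0.846). Of the 5 with the lowest *r*, 0 have a symbol, and ENSOARG00020009036 (*r* = −0.771) and ENSOARG00020014152 (*r* = −0.769) were at the end. The 4 assembly factors of complex IV lay far apart in this order of 8577 genes, with *PET100* at number 13 (*r* = 0.770), *TMEM223* at 30 (*r* = 0.733), *HIGD2A* at 2833 (*r* = 0.141) and *COX15* at 7836 (*r* = −0.380). The 6 nuclear genes of complex I ranged from −0.175 (*NDUFA3*) to 0.327 (*NDUFB5*) and the 9 of the mitochondrial ribosome from −0.245 (*MRPL15*) to 0.479 (*MRPS23*). Without HOX animal 1 *PET100* had *r* = 0.855, *TMEM223* 0.731, *HIGD2A* 0.386 and *COX15* −0.356. The complex I genes then ranged from −0.102 (*NDUFA3*) to 0.729 (*NDUFB5*), with *NDUFB8* at 0.462 and *NDUFS4* at 0.445. Those of the mitochondrial ribosome ranged from −0.254 (*MRPL15*) to 0.494 (*MRPS23*). Of the 10 highest genes, 7 were again among the 10 highest without CON animal 6, and 6 without HOX animal 1.

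Markers of cell types differed in mean level between the groups, although edgeR called 0 of them with all livers, and their part in the values of the 3 genes was not tested. They too were found only through the study's own list. The 8 hepatocyte genes ranged in sum from 20587 to 30700 CPM in CON and from 14858 to 23402 in HOX, with *FGG* the most abundant, at 8258 CPM on average in CON and 6653 in HOX, and 7 of the 8 had a lower mean in HOX. DESeq2 called 5 of the 8, 4 as lower and 1, *HGFAC*, as higher in HOX. Without CON animal 6 edgeR called 1, *AFP* (adjusted *P* = 0.136), where it called 10 of all tested genes (0.117%), and without HOX animal 1 DESeq2 called 7 as lower and *HGFAC* as higher. Of 19 genes of red cell precursors, which the fetal liver harbours, 4 were found. Their sum was 297 ± 115 CPM in CON (170 to 533, median 248) and 479 ± 195 in HOX (259 to 772, median 441), and all 4 had a higher mean in HOX, with *ANK1* the most abundant at 143 and 224 CPM. DESeq2 called 0 of the 4. HOX animal 1 had the lowest sum of its group, and without it the HOX sum was 516 ± 185 CPM (*n* = 6) and DESeq2 called all 4. In the upper set of *COX1*, HOX animals 2, 6 and 4 had sums of 441, 503 and 772 CPM. In the lower set, HOX animals 1, 5 and 3 had 259, 296 and 384 CPM, and HOX animal 7 had 700.5 CPM. Whether the sums went with these sets was not tested. Single markers were found for macrophages (*CD163*, −0.60, SE 0.231), endothelium (*CD34*, 1.04, SE 0.292) and stellate cells or fibroblasts (*ASPN*, 0.38, SE 0.116), given as log2 fold changes, and DESeq2 called *CD34* and *ASPN*. *CD163* had 61.9 CPM in HOX animal 1 and 172 to 326 CPM in the other 6 HOX livers. Without that liver its log2 fold change was −0.43 (SE 0.142), and DESeq2 called all 3.

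By the same *r* with the 3 genes within groups, the 8 hepatocyte genes ranged from −0.284 (*HGFAC*) to 0.531 (*AGT*). *AFP* was at 0.470 and *ASGR2* at 0.443. The range was −0.435 (*HGFAC*) to 0.534 (*AGT*) without HOX animal 1, and −0.406 (*HGFAC*) to 0.701 (*AFP*) without CON animal 6. The 4 genes of red cell precursors ranged from −0.299 (*CPOX*) to 0.156 (*TFRC*). These 2 genes had −0.311 and 0.103 without HOX animal 1, and −0.267 and 0.206 without CON animal 6. *ASPN* was number 8490 of 8577, with *r* = −0.593, and had −0.657 without HOX animal 1 and −0.698 without CON animal 6. *CD163* had *r* = 0.305 and *CD34* −0.123.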

How the data were processed

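Polyadenylated RNA of 16 fetal livers was sequenced, and the authors mapped the reads with STAR 2.7.10b (version from the submitters' processing notes) and deposited the raw count of reads on every gene, without normalization. The counting rule and the use of strand are not given in the sources used here. Groups, animal numbers and sex came from the labels, and symbols from the study's supplementary gene table, which pairs 438 of its 487 identifiers with one; the RefSeq table holds 0 of the identifiers of the count table. The 8580 genes that reached 250 reads in 8 or more livers (97.7% of reads) were fitted with edgeR 4.0.16 in R 4.3.3 (quasi-likelihood test, TMM, library size from the tested genes), with Benjamini-Hochberg adjustment over all tested genes and a threshold of 0.15. DESeq2 1.42.0, other scalings, other read minimums, a replicate block and leaving out livers, with the same genes kept, were alternatives. Standard errors were derived from unshrunken coefficients and *F*. Log2 CPM used a prior count of 2. Exact permutation tests, at a threshold of 0.05, and plots used Python 3.11.15 (scipy 1.17.1, numpy 2.4.6, pandas 2.3.3, matplotlib 3.10.9). Tested on simulated counts for 8580 genes with 200 changed, edgeR recovered 187 for HOX against CON and 183 for sex (changes of 1 on the log2 scale) and 192 for the interaction (changes of 2), with 23 of 210, 29 of 212 and 15 of 207 calls false. The planted changes were larger than the log2 fold changes of the 3 genes, and no simulated liver was made to stand apart. Recovery of smaller changes was not tested. No pair of livers of a group agreed within counting noise (lowest ratio of chi-square to its degrees of freedom 38.8). The 3 genes and the lists were chosen with earlier results of these data known. The genes named by rule were the 3 genes, the list genes with a symbol, and the 10 most and 5 least like the 3 genes, with at most 2 identifiers at each end where none has a symbol. A gene of the lists is not reported here.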

Additional observations from a re-analysis of the deposited data

Results flagged for a closer look

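In 14 checks of 7 measures (the summed share, 3 expression values and 3 ratios) in each group, 3 values lay far from the rest of their group by Dixon's criterion, which chance meets in about 1 in 20 groups. In CON, animal 6 stood far above the other livers in the *COX1*/*ND4* ratio, at 2.94, and far below them in the *ND4*/*COX3* ratio, at 0.470. Both values share its *ND4* count and are not independent. In HOX, animal 5 stood far above the other livers in *ND4*, at 2139.98 CPM.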

How the results depend on the processing

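The log2 fold changes of *COX1*, *COX3* and *ND4* in HOX against CON were negative under every alternative run, from −0.62 to −0.48, −0.47 to −0.37 and −0.42 to −0.34, and from −0.65 to −0.51, −0.47 to −0.37 and −0.48 to −0.33 with single livers left out. With DESeq2 they were −0.57, −0.43 and −0.40, and −0.53, −0.47 and −0.37 with DESeq2 without HOX animal 1. DESeq2 called all 3 both times and edgeR called 0 under every alternative, from which nothing is read, as the same comparison chose the genes. The cause of the difference between the tests was not tested. The 5 calls over all genes became 237 with DESeq2, 1 without a read minimum, 2 in males and 0 in females alone (fewer livers), 22 without CON animal 6 and HOX animal 1 together, and 524 with DESeq2 without HOX animal 1, the last 2 chosen after seeing the data. With a liver left out the count ranged from 1 to 11. It was 1 without CON animal 4 or HOX animals 2, 3, 6 or 7, 2 without CON animals 1, 3 or 8, 3 without CON animal 9, 8 without CON animal 2, 10 without CON animal 6 or HOX animal 5, and 11 without HOX animal 1.

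With animal number as a replicate block over the 14 livers that share numbers, 0 genes were called by edgeR (757 at an unadjusted *P* under 0.05), and the log2 fold changes of the 3 genes were −0.62, −0.44 and −0.38. Same-numbered livers correlated between −0.31 and 0.15, and 0 of 7 CON livers correlated best with their own number. These values show no pairing by number. With 7 pairs they cannot exclude a shared batch, and the labels name none.

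For sex, 2 calls became 7 with DESeq2, 1 with the read minimum in 9 livers and 0 in CON or in HOX alone (2 to 3 with a liver left out). Differences near 0 changed sign. *COX1* was −0.0028 and *COX3* −0.11 without CON animal 6 and HOX animal 1, and *COX3* was −0.0065 with upper quartile scaling and −0.0197 in HOX alone. With a liver left out *COX1* ranged from −0.0424 to 0.12, *COX3* from −0.0699 to 0.0561 and *ND4* from −0.16 to −0.05. For the interaction, 0 calls became 6 with DESeq2 and ranged from 0 to 3 with a liver left out (3 without HOX animal 4). It was −0.0773 for *COX1* and −0.0602 for *ND4* on total counts, −0.0179 and −0.0224 with upper quartile scaling, and 0.0178 for *COX3* and −0.0700 for *ND4* without CON animal 6 and HOX animal 1. With a liver left out it ranged from −0.14 to 0.26 for *COX1*, −0.16 to 0.11 for *COX3* and −0.0920 to 0.19 for *ND4*. None of these single-gene values passed the threshold.

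In CON, *r* of *COX1* and *COX3* was 0.898 to 0.939 with a liver left out. With *ND4*, *r* was −0.0906 (*COX1*) and −0.246 (*COX3*) on shares without TMM, −0.0837 and −0.239 on shares of totals without the 3 genes, and −0.103 to 0.867 and −0.149 to 0.800 with a liver left out, the highest without animal 6. In HOX, *r* of *COX3* and *ND4* was −0.249 to 0.457. The sex difference of *COX1*/*COX3* was −0.0190 in CON alone and −0.0589 to 0.0707 with a liver left out, that of *COX1*/*ND4* 0.00094 to 0.23 and that of *ND4*/*COX3* −0.17 to 0.0200. The cause of these shifts was not tested. As a share of reads on the tested genes, the 3 genes had a mean of 0.835% in CON and 0.625% in HOX.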

Other observations

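The count table lists the 3 genes within a run of 35 consecutive identifiers, of which 19 had 0 reads in every liver and 13 passed the read minimum. The other 10 of these 13 have no symbol in the sources used and are not named, and they were looked at after the *ND4* value of CON animal 6 had been seen. CON animal 6 lay above all 15 other livers in 4 of the 10, below all of them in 3 and inside their range in 3. Over all tested genes it lay above all others in 11.0% and below all others in 11.5%.

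In the order of identifiers, the 4 above came before *ND4* and the 3 below came after it. CON animal 6 had 955 reads on ENSOARG00020000034, where the other CON livers had 16262 to 28226 and the HOX livers 14872 to 30120. It had 5826 reads on ENSOARG00020000036, where the other CON livers had 9265 to 32229 and the HOX livers 15374 to 34619. On ENSOARG00020000022 it had 41628 reads, against 17674 to 29047 in the other CON and 13909 to 28465 in the HOX livers, and on ENSOARG00020000020 it had 15161, against 7064 to 12020 and 5578 to 9912. CON animal 6 had 24389406 reads in all, inside the range of the other livers. The cause was not tested. As to the group difference, 9 of the 10 had a lower mean in HOX, with a median log2 fold change of −0.12 (−0.44 to 0.06), and edgeR called 0 of them. Without HOX animal 1, 8 of the 10 were lower, with a median of −0.08 (−0.46 to 0.06). Without CON animal 6, 9 of the 10 were lower, but not the same 9, with a median of −0.16 (−0.29 to 0.11). ENSOARG00020000036 was at 0.06 with that liver and at −0.05 without it, and 1 other identifier went from −0.06 to 0.11.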
